A study of Mus musculus with 26 samples.

Results

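Polycomb proteins keep developmental genes silent, and the genes that encode 10 of their subunits (Ezh1, Ezh2, Eed, Suz12, Jarid2, Mtf2, Rnf2, Cbx2, Cbx7 and Pcgf6) were followed here across 3 pluripotent states of mouse cells. The members were taken by name. RPKM values (read numbers normalised to gene length and library size) were found for 9 of the 10, among 15646 genes, and the same 9 had a baited promoter fragment, among 19022 baited fragments. Ezh2 was not analysed here.

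The series compared embryonic stem cells (ESCs), which resemble the preimplantation epiblast, with epiblast-derived stem cells (EpiSCs), which resemble the epiblast after implantation, and with ESCs that lack Nanog, a pluripotency transcription factor. Wild-type (WT) ESCs were E14Tg2a (129P2/OlaHsd) and the Nanog-/- ESCs were RCNβH-B(t), a single line derived from E14Tg2a and expanded with hygromycin, so that the state and the line cannot be told apart. Both ESC lines grew on gelatin in serum with LIF, whereas the embryo-derived 129S2 EpiSCs grew on fibronectin in N2B27 with Activin A and bFGF, so that line, medium and state differ together. The strain field of the labels gives C57BL/6 for all samples, which differs from the strains named in the culture protocol. RNA-seq covered 3 WT ESC, 4 EpiSC and 3 Nanog-/- ESC samples, and Promoter Capture Hi-C (PCHi-C), which counts read pairs that join a baited promoter to another HindIII fragment, covered 5, 2 and 5 sequencing lanes. The deposited values are 1 median RPKM per state and 1 combined contact list per state, so no value below has a replicate error and no difference was tested.

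Polycomb proteins act in 2 main complexes. Polycomb repressive complex 2 (PRC2) methylates lysine 27 of histone H3 through EZH1 or EZH2, held by EED and SUZ12, and accessory subunits such as JARID2 and MTF2 help to bring it to CpG-rich promoters. Polycomb repressive complex 1 (PRC1) ubiquitinates histone H2A through RNF2 (also called RING1B) or RING1. Canonical PRC1 binds the PRC2 mark through a CBX protein, of which CBX7 is known as the main one in ESCs, while variant PRC1 carries other PCGF proteins such as PCGF6.

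The markers of the states were checked first. Nanog had 418 RPKM in WT ESCs and 22.3 RPKM in Nanog-/- ESCs, and Fgf5, a marker of the primed state, had 4.74 RPKM in WT ESCs and 219 RPKM in the deposited EpiSC values. All 6 measured markers of naive ESCs were lower in EpiSCs, and 1 of them, Nr0b1, was listed at 0 there. The median ratio of EpiSC to WT ESC RPKM was 1.89 over the 9077 genes with at least 1 RPKM in both, a shift of 0.91 on the log2 scale, and EpiSC values were divided by it unless they are called deposited. The corresponding ratio of Nanog-/- to WT ESCs was 1.05, and those values were left as deposited. With EpiSC values scaled, Fgf5 was the only 1 of the 5 primed markers past 2-fold. The differences of log2(RPKM + 1) from WT ESCs were 4.35 for Fgf5, 0.94 for Zic2, 0.87 for Pou3f1, 0.07 for Otx2 and −0.55 for Dnmt3b. Some markers of other cell types moved as well. The summed RPKM of 4 mesendoderm markers was 7.38 in WT ESCs and 300.7 in scaled EpiSC values (single genes from 0.318 to 3.37 and from 3.31 to 235.5), and that of 3 fibroblast markers was 41.2 and 148.4 (from 5.73 to 20.5 and from 26.4 to 72.6). Of these 3, the collagen genes Col1a1 and Col1a2 passed 2-fold, whereas Thy1 had 20.5 and 26.4 RPKM, a difference of 0.35. Pax6, a neural marker, did not rise, with 1.45 and 1.07 RPKM. The summed RPKM of 5 primitive endoderm markers was 3.66 in WT ESCs, 66.9 in Nanog-/- ESCs and 17.9 in EpiSCs, with 5 of 5 past 2-fold in Nanog-/- ESCs and 3 of 5 in EpiSCs. In EpiSCs Gata4 was lower, at 0.518 RPKM beside 1.29 in WT ESCs, and Sox7 had 0.190 RPKM beside 0.127. The part of such cells in the values below was not tested, and in bulk RNA fewer cells of a type and less RNA per cell cannot be told apart.

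A few of the contacted and captured sequences are printed. Baits were HindIII fragments, and all 77 fragments in the members' contacts began and ended at HindIII sites in GRCm38. Of the 6 partners of at most 230 bases, 4 are shown, 1 each for a different bait. They are given on the plus strand, and the capitals mark what the cut leaves of the HindIII site. The first overlaps an exon of Cntnap1 at chr11:101182168-101182358 and met the Ezh1 promoter in 2 lists. The second is intergenic at chr15:80061639-80061850, with Rpl3 as its nearest gene, and gave the highest score of Cbx7. The third is intergenic at chr7:90215953-90216180 near Picalm and met Eed, and the fourth is intergenic at chr13:44364670-44364862 upstream of Jarid2 and met Jarid2.
Ezh1 partner: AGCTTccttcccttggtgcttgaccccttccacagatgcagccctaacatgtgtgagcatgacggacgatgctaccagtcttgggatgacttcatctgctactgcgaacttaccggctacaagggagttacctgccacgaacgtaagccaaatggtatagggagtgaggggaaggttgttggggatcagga
Cbx7 partner: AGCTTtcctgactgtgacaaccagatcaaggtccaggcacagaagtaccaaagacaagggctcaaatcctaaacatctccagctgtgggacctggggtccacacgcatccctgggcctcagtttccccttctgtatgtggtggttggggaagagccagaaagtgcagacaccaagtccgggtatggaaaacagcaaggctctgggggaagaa
Eed partner: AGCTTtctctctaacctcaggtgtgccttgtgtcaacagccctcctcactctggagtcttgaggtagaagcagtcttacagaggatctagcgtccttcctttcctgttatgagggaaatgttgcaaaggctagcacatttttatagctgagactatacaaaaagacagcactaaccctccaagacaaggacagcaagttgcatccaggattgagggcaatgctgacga
Jarid2 partner: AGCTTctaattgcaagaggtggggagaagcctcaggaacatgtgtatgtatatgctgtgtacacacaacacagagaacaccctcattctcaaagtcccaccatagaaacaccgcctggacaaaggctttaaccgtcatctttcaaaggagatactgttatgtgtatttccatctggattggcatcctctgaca

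The baited side is shown by the 150 bases before the RefSeq transcription start (GRCm38) of 4 members, on the strand of the gene, with matches to GGGCGG or CCAAT on either strand in capitals. GGGCGG is the core of the GC box and CCAAT that of the CCAAT box. These stretches lie inside the baits, at chr11:79992956-79993105 (plus strand) for Suz12, chr1:151500992-151501141 (minus strand) for Rnf2, chr19:47050907-47051056 (minus strand) for Pcgf6 and chr7:89980977-89981126 (minus strand) for Eed.
Suz12 promoter: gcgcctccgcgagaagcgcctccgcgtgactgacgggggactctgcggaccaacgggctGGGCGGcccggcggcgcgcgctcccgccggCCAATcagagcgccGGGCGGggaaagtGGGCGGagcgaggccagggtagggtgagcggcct
Rnf2 promoter: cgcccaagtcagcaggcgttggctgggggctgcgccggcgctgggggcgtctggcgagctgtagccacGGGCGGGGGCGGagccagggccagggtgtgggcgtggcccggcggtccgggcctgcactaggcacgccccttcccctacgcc
Pcgf6 promoter: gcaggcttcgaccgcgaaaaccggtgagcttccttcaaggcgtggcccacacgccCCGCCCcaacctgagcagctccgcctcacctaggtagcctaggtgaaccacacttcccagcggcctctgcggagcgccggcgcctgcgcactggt
Eed promoter: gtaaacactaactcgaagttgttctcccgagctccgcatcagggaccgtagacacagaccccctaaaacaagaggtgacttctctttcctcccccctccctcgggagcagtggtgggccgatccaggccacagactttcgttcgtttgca

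RefSeq entries were found for 8 of the 9 baited members, and 7 of them had an entry inside the bait. The entry of Cbx7, at chr15:79932647-79932796, lay outside its bait, which held the 5′ end of the gene in the GENCODE annotation (79971119). The RefSeq stretches were rich in CpG, from 8 in Eed to 23 in Suz12 for each member's entry with the most, beside a median of 4 over all 32851 RefSeq promoters. Suz12 held GGGCGG at 3 places and Rnf2 at 2 that adjoin, while Mtf2 and Pcgf6 held it once and Ezh1, Eed and Jarid2 had no match in this window. GGGCGG occurred in 28.6% of all promoter stretches of this length, and CCAAT, found once in Suz12, in 24.5%.

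Expression of the subunits in EpiSCs was compared with WT ESCs to ask whether the Polycomb machinery differs between pluripotent states. On the log2(RPKM + 1) scale with the EpiSC values scaled, 5 of the 9 members were at least 2-fold lower in EpiSCs and 0 were 2-fold higher, whereas 14.4% of the 10532 genes compared were 2-fold lower and 15.5% were 2-fold higher. The 5 were Mtf2, Eed, Jarid2, Cbx7 and Ezh1. The median difference of the members was −1.06, beside 0.01 over all genes compared. This count depended on the scaling. With the deposited EpiSC values, 0 members were 2-fold lower and 2, Rnf2 and Cbx2, were 2-fold higher, beside 8.27% and 43% of 10927 genes, and the medians were −0.22 for the members and 0.86 for all genes. Rnf2 and Cbx2 lay above the median of all genes, and the other 7 members below it, under both scalings, which shift all genes alike.

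**Figure D1:**
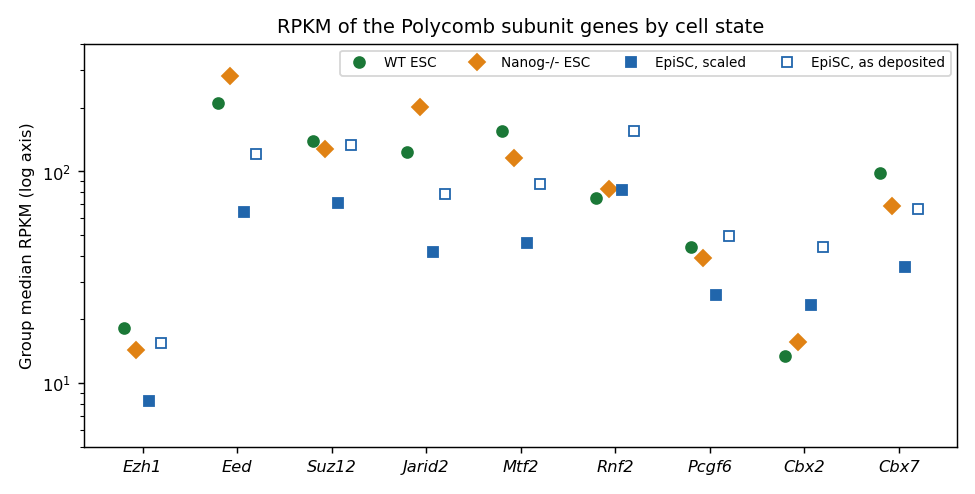
Median RPKM of each subunit gene (log axis) in WT ESCs, Nanog-/- ESCs and EpiSCs, with EpiSC values both scaled and as deposited; each point is 1 deposited group median with no error. Scaled EpiSC values lie below WT ESCs for 7 of 9 genes and deposited ones for 6, with Pcgf6 on the other side.

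Of the PRC2 core, Eed, which binds methylated H3 and stimulates the enzyme, had 210.6 RPKM in WT ESCs, 64.2 RPKM in EpiSCs (121.1 as deposited) and 283.2 RPKM in Nanog-/- ESCs. EpiSCs were thus lowest, 3.24-fold below WT ESCs when scaled, and Nanog-/- ESCs highest. Suz12, the scaffold of the complex, had 138.7 RPKM in WT ESCs, 70.7 RPKM in EpiSCs (133.3 as deposited) and 127.1 RPKM in Nanog-/- ESCs. Its difference of −0.96 in EpiSCs lay just inside the 2-fold line and was −0.06 without scaling. The ratio of Suz12 to Eed RPKM, which no scaling between states touches, was 0.658 in WT ESCs, 0.449 in Nanog-/- ESCs and 1.1 in EpiSCs, so the gene with the higher value differed between WT ESCs and EpiSCs. Ezh1, the catalytic subunit known for its presence in cells that divide little, was the lowest PRC2 member, with 18.2 RPKM in WT ESCs, 8.21 RPKM in EpiSCs (15.5 as deposited) and 14.4 RPKM in Nanog-/- ESCs. Its difference of −1.06 in EpiSCs lay just outside the 2-fold line and was −0.93 when the scaling used only genes of 10 RPKM or more.

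Both accessory subunits were lower in EpiSCs. Mtf2, a Polycomb-like protein that binds unmethylated CpG, had 155.5 RPKM in WT ESCs, 46.1 RPKM in EpiSCs (87.0 as deposited) and 115.2 RPKM in Nanog-/- ESCs. The difference in EpiSCs was −1.73, the lowest of the members. Jarid2, which defines a form of PRC2 of its own, had 123.7 RPKM in WT ESCs, 41.4 RPKM in EpiSCs (78.1 as deposited) and 200.9 RPKM in Nanog-/- ESCs. It was thus 2.94-fold lower in EpiSCs when scaled, and 1.62-fold higher in Nanog-/- ESCs. The ratio of Jarid2 to Mtf2 RPKM was close in WT ESCs and EpiSCs, 0.795 and 0.899, and was 1.74 in Nanog-/- ESCs.

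The PRC1 members did not share 1 direction. Rnf2, the ubiquitin ligase, had 74.9 RPKM in WT ESCs, 81.9 RPKM in EpiSCs (154.5 as deposited) and 82.2 RPKM in Nanog-/- ESCs, a difference in EpiSCs of 0.13 when scaled and 1.03 when not. Ring1, its paralogue, had 4.39 RPKM in WT ESCs, 13.5 RPKM in EpiSCs and 6.23 RPKM in Nanog-/- ESCs. The ratio of Rnf2 to Ring1 was therefore 17.1 in WT ESCs, 13.2 in Nanog-/- ESCs and 6.05 in EpiSCs, and Rnf2 was the higher of the paralogues in every state.

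The levels of the chromodomain members lay closer together in EpiSCs. Cbx7 had 98.3 RPKM in WT ESCs, 35.3 RPKM in EpiSCs (66.5 as deposited) and 68.4 RPKM in Nanog-/- ESCs. Cbx2, which can also compact chromatin, had 13.5 RPKM in WT ESCs, 23.4 RPKM in EpiSCs (44.1 as deposited) and 15.6 RPKM in Nanog-/- ESCs. Cbx7 was thus highest in WT ESCs and Cbx2 highest in EpiSCs under both scalings, and the ratio of Cbx7 to Cbx2 was 7.30, 1.51 and 4.39 in WT ESCs, EpiSCs and Nanog-/- ESCs. Pcgf6, which defines a variant PRC1 with MGA, MAX and E2F6, had 43.8 RPKM in WT ESCs, 26.1 RPKM in EpiSCs (49.3 as deposited) and 39.2 RPKM in Nanog-/- ESCs. Its direction depended on the scaling, at −0.72 when scaled and 0.17 when not. Bmi1, which can hold the PCGF place in canonical PRC1, had 1.58 RPKM, 8.24 RPKM and 4.90 RPKM in WT ESCs, EpiSCs and Nanog-/- ESCs. The ratio of Pcgf6 to Bmi1 was 27.8, 3.17 and 8.01 in that order. Pcgf2, another PCGF gene, was higher than Bmi1 in every state, at 44.6 RPKM, 33.4 RPKM and 40.8 RPKM. The ratio to Bmi1 alone therefore does not give the balance of variant and canonical PRC1.

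The rank of a gene among all 15646 genes of its own state is untouched by the scaling. By this measure Eed stood at percentile 97.4 in WT ESCs and 91.7 in EpiSCs, Jarid2 at 94.97 and 85.8, Mtf2 at 96.1 and 87.5, and Cbx7 at 93.6 and 83.3. Ezh1 stood at percentile 71.4 and 57.3, and Suz12, at 95.6 and 92.7, and Pcgf6, at 85.2 and 78.0, were also lower in EpiSCs. Rnf2, at 91.3 and 93.9, and Cbx2, at 66.7 and 75.9, were higher. By rank, as with the scaled values, 7 members were lower and 2 were higher in EpiSCs. Ranks are another normalisation of the same medians, so this likeness is no separate support. A gene near the top, as Eed, Mtf2, Suz12, Jarid2 and Cbx7 were in WT ESCs, has little room to rise. How many other genes of like rank were also lower was not computed.

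In Nanog-/- ESCs, 0 of the 9 members passed 2-fold against WT ESCs, where 2.59% of 10175 genes were 2-fold higher and 2.08% were 2-fold lower. The members' differences ran from −0.52 for Cbx7 to 0.70 for Jarid2, with a median of −0.12 beside 0.07 over all genes. Those below 0 were Ezh1, Suz12, Mtf2, Cbx7 and Pcgf6. Both this comparison and that of EpiSCs used the same WT ESC medians.

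The rest of the Polycomb system was read from a list of 38 other genes, of which 30 had RPKM values. With EpiSC values scaled, 7 of the 30 were 2-fold higher and 4 were 2-fold lower than in WT ESCs, beside the 15.5% and 14.4% of all genes, so that 23.3% of the list was higher and 13.3% lower. The median difference was 0.02. Without scaling, 13 were higher and 1 was lower, beside 43% and 8.27% of all genes, with a median of 0.85. Under both scalings this median lay within 0.05 of that of all genes. The 7 higher genes held PRC1 parts, namely Ring1 (1.43), Bmi1 (1.84) and the polyhomeotic gene Phc2 (1.73). They also held the variant PRC1 genes Yaf2 (1.69), Bcorl1 (1.49) and E2f6 (1.61), and Kdm6b (1.59), a demethylase that removes the PRC2 mark. The lower genes were Pcgf5 (−1.12), L3mbtl2 (−1.19) and Usp7 (−1.29) of variant PRC1 and the deacetylase Hdac1 (−2.95), which stayed 2-fold lower without scaling. None of the 5 measured PRC2 accessory and histone-binding genes of that list passed 2-fold with scaling, and they ran from −0.49 to 0.60. In Nanog-/- ESCs, 1 of the 29 other genes compared passed 2-fold, Bmi1 at 1.19, and the others ran from −0.61 to 0.74.

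**Figure D2:**
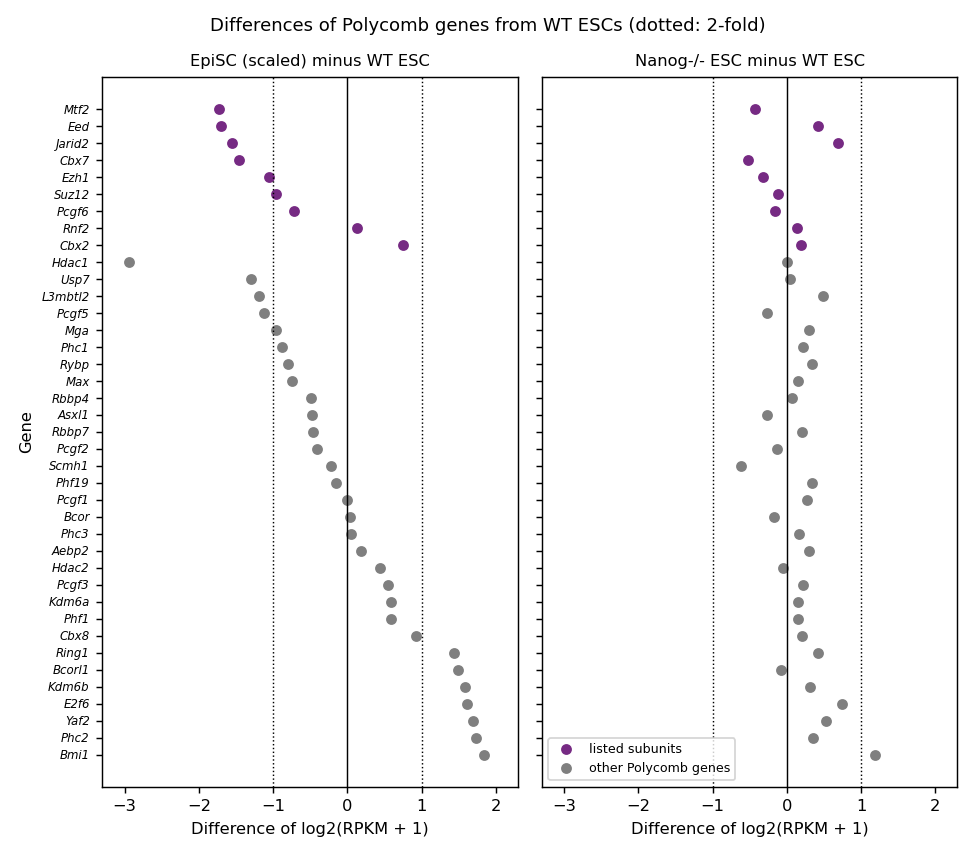
Difference of log2(RPKM + 1) from WT ESCs for the 9 subunit genes (purple) and 30 other Polycomb genes (grey), with EpiSC values scaled on the left and Nanog-/- ESCs on the right; dotted lines mark 2-fold and points have no error. With this scaling 5 subunit genes lie left of the lower line in EpiSCs, none of which does so without it, and none is past a line in Nanog-/- ESCs.

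The PCHi-C lists were then read for the promoters of the same genes, to ask which fragments they contacted in each state. A contact here is a different pair of HindIII fragments, listed with the reads that join it and a CHiCAGO score. The score is made from a weighted p-value for more reads than the CHiCAGO background model expects, and is at least 5 in all lists. The lists held 100492, 87369 and 74931 contacts of WT ESCs, EpiSCs and Nanog-/- ESCs, from 2177383, 1651422 and 1440356 reads. The 9 member baits had 34, 30 and 27 of these contacts, with 567, 419 and 422 reads, and 68 different contacts in all. None joined different chromosomes, as only 786, 388 and 346 contacts of the whole lists did. None met a fragment of the published ESC super-enhancers, and the share of all contacts that did was not computed. The partner overlapped an exon in 31 contacts, lay in an intron in 11 and was intergenic in 26, and 18 partners carried a bait of their own. In the lists as a whole a baited fragment had a median of 3 contacts in both WT ESCs and EpiSCs and of 2 in Nanog-/- ESCs.

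**Figure D3:**
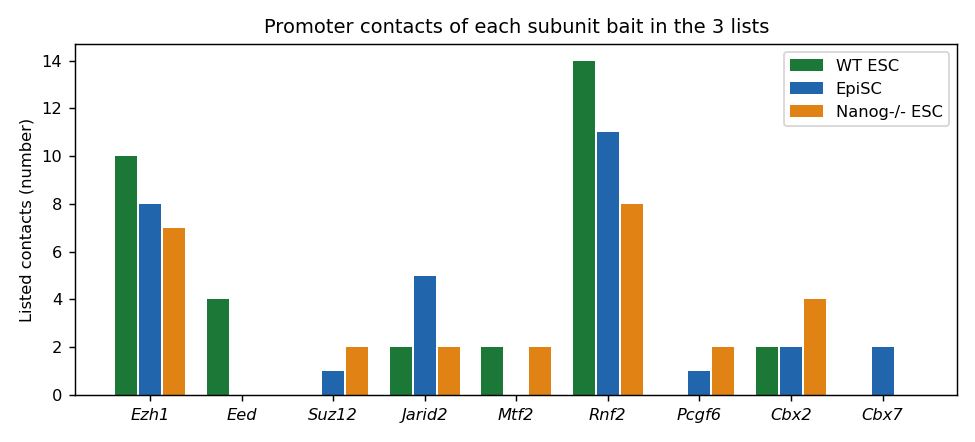
Number of listed contacts of each subunit bait in the lists of WT ESCs, EpiSCs and Nanog-/- ESCs, 1 combined list each with no error. The Rnf2 and Ezh1 baits have the most contacts in all 3 lists, and each of Eed, Suz12, Mtf2, Pcgf6 and Cbx7 has a list with none.

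Of the 68 contacts, 21 were listed in more than 1 state, 30.9% (Wilson 95% interval 21.2 to 42.6%), beside 36.5% of the contacts of all baits. Of the 34 contacts of WT ESCs, 7 were also listed in EpiSCs, 20.6% (10.3 to 36.8%), where 39.6% of all WT ESC contacts were. In Nanog-/- ESCs, 8 of the 34 were listed, 23.5% (12.4 to 40.0%), beside 41.8% of all. Of the 30 EpiSC contacts, 10 were in the Nanog-/- list, 33.3% (19.2 to 51.2%), beside 36.4%. Read from the other side, 7 of the 30 EpiSC contacts (23.3%) and 8 of the 27 Nanog-/- contacts (29.6%) were in the WT ESC list, beside 45.5% and 56% of all. Only 2 of the 68 contacts were in all 3 lists, 2.94% (0.81 to 10.1%), beside 14.4%. The intervals cover counting error only, and contacts of 1 bait share its reads. The Rnf2 and Ezh1 baits held 24 of the 34 WT ESC contacts and all 7 that were also in EpiSCs, so 0 of the 10 contacts of the other baits were, which allows a share of up to 30%. When a partner within 10 kb was accepted, 14 of 34 (41.2%) were matched in EpiSCs and 15 of 34 (44.1%) in Nanog-/- ESCs, beside 60.0% and 61.0% for all baits. Unlike the shares before, these 2 shares of all baits count a contact between 2 baits once from each end, over 123718 in place of 100492. A contact that a list lacks may have fallen under the score of 5.

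**Figure D4:**
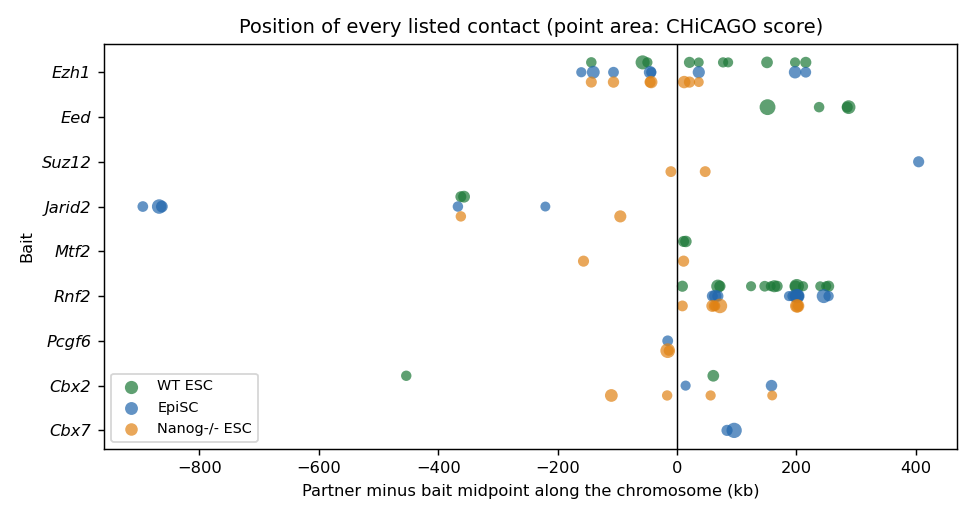
Midpoint of each partner fragment relative to its bait (kb along the chromosome) for the 9 baits, coloured by list, with point area in proportion to the CHiCAGO score. The Jarid2 partners between −863.0 and −894.9 kb appear in EpiSCs, those between −356.8 and −367.1 kb are 3 neighbouring fragments of which none is in all 3 lists, and the Rnf2 partners lie on 1 side, between 8.88 and 253.8 kb.

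The Rnf2 bait (chr1:151499810-151502074) had the most contacts, 14 in WT ESCs, 8 in Nanog-/- ESCs and 11 in EpiSCs. All 22 different partners lay on the side of Fam129a and Edem3, which is upstream of Rnf2, a gene on the minus strand. The fragment chr1:151699914-151702774, which overlaps an exon of Fam129a 200.4 kb away, was contacted in all 3 lists, by 15 reads in WT ESCs (exact Poisson interval 8.40 to 24.7), 14 in EpiSCs (7.65 to 23.5) and 9 in Nanog-/- ESCs (4.12 to 17.1). The intervals overlap but cover only the counting error of raw reads, without the unlike size of the lists or any replicate spread. The scores were 10.76, 10.69 and 9.22. This fragment had the highest score of Rnf2 in WT ESCs and EpiSCs. In Nanog-/- ESCs the highest was 10.89, with 17 reads, at the Fam129a promoter fragment 71.7 kb away, which had 23 reads and a score of 6.49 in WT ESCs and was not listed in EpiSCs. A group of 5 WT ESC contacts between 123.9 and 167.6 kb, all within Fam129a, was listed in neither of the other states. The farthest partner in WT ESCs and EpiSCs was the Edem3 promoter fragment at 253.8 kb, with 10 and 8 reads. In Nanog-/- ESCs it was a fragment overlapping a Fam129a exon at 202.6 kb. The fragment at 245.6 kb had a score of 10.11 from 12 reads in EpiSCs alone. Fam129a RPKM was 8.81 in WT ESCs, 7.49 in Nanog-/- ESCs and 10.9 in EpiSCs.

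**Figure D5:**
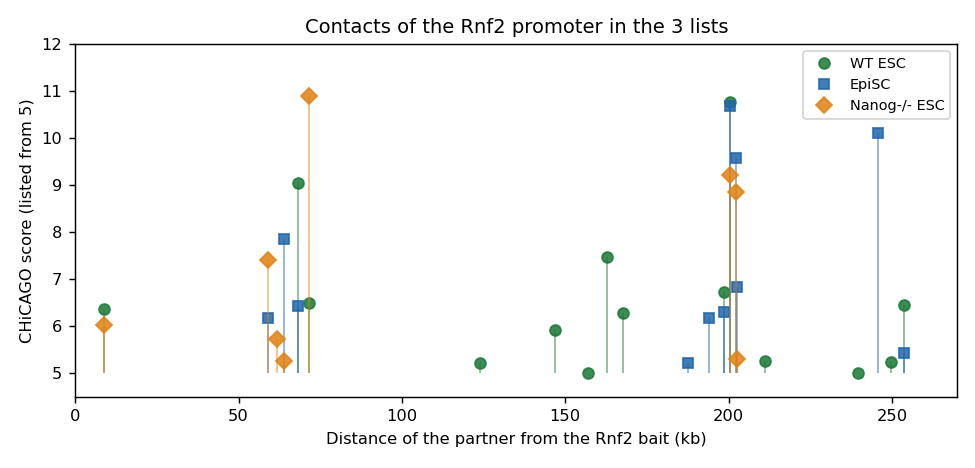
CHiCAGO score of each listed contact of the Rnf2 promoter against the distance of its partner (kb) in the 3 lists. All 3 lists have a contact at 200.4 kb with scores from 9.22 to 10.76, and 5 contacts between 123.9 and 167.6 kb are in the WT ESC list alone.

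The Ezh1 bait (chr11:101225741-101229242) had 10 contacts in WT ESCs, 7 in Nanog-/- ESCs and 8 in EpiSCs, on both sides. Its contact with the Wnk4 promoter fragment (chr11:101259350-101268316), 36.3 kb away, was in all 3 lists, with 27 reads in both WT ESCs and EpiSCs and 14 in Nanog-/- ESCs, at scores of 5.00, 7.63 and 5.05 in that order. Wnk4, a kinase of ion transport, had 0.770 RPKM in WT ESCs, 11.0 RPKM in EpiSCs and 2.08 RPKM in Nanog-/- ESCs. Around Cntnap1 the contacted fragments differed between states. WT ESCs had the Cntnap1 promoter fragment 57.8 kb away, with 15 reads and the highest score of the bait, 10.13. They also had a fragment within Cntnap1 at 49.7 kb, with 24 reads and a score of 5.33. EpiSCs and Nanog-/- ESCs shared a pair of fragments further into the gene at 45.2 and 43.3 kb. The first of these, the Ezh1 partner printed above, had 28 reads and a score of 8.02 in EpiSCs and 15 reads and 6.44 in Nanog-/- ESCs. Cntnap1 had 0.324 RPKM in WT ESCs, 4.02 RPKM in EpiSCs and 0.367 RPKM in Nanog-/- ESCs. The highest score in EpiSCs was 8.48, from 17 reads to the Mlx promoter fragment 140.4 kb away, and in Nanog-/- ESCs 7.98, from 43 reads to an intergenic fragment 11.9 kb away. The farthest partner in WT ESCs and EpiSCs was the Rpl27 promoter fragment 215.6 kb away, with 7 reads in each, and in Nanog-/- ESCs the Coasy promoter fragment 143.7 kb away. The contact with Rpl27 was listed in both states, and Rpl27, a ribosomal protein gene, had 402 RPKM in WT ESCs and 38.0 RPKM in EpiSCs.

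The other PRC2 baits had fewer contacts than that of Ezh1 in every list. Eed (chr7:89975008-89981352) had 4, all in WT ESCs and all upstream. The highest score among all members, 12.86, came from 13 reads (6.92 to 22.2 by the exact Poisson interval) to the Picalm promoter fragment chr7:90127738-90131639, 151.5 kb away, and the farthest partner was the Ccdc83 promoter fragment 287.3 kb away (8 reads, score 9.69). Picalm RPKM was 112.3 in WT ESCs, 144.7 in Nanog-/- ESCs and 97.0 in EpiSCs. Suz12 (chr11:79992288-79994030) had no contact in WT ESCs. In EpiSCs its 1 contact had 5 reads and a score of 6.36 to an intron of Zfp207 404.7 kb away, and in Nanog-/- ESCs its 2 contacts lay 10.4 and 47.1 kb away with scores of 6.06 and 6.07. Mtf2 (chr5:108057226-108066518) met its own gene body 10.9 kb away in WT and Nanog-/- ESCs, with 30 and 18 reads and scores of 6.30 and 6.42. It also met an intron of its own 14.8 kb away in WT ESCs (score 6.79) and a fragment with Rpl5 exons and the Snord21 bait 156.7 kb away in Nanog-/- ESCs (5 reads, score 6.32), and it had no contact in EpiSCs.

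Jarid2 (chr13:44729309-44734513) had the longest contacts of the members. In EpiSCs it met 3 intergenic fragments between 863.0 and 894.9 kb upstream, with Cd83 as the nearest gene. They had 7 reads and a score of 7.08 at 863.0 kb, 9 reads and 10.82 at 867.5 kb (chr13:43863441-43865311), and 6 reads and 5.88 at 894.9 kb. Contacts over 800 kb made up 1.78% of the EpiSC list, 1.29% of the WT ESC list and 0.368% of the Nanog-/- list. Closer to the gene, neighbouring fragments were listed in the 3 states. WT ESCs had contacts at 356.8 kb (10 reads, score 7.22) and 362.2 kb (9 reads, 6.16), Nanog-/- ESCs at 362.2 kb (6 reads, 5.60), and EpiSCs at 367.1 kb (8 reads, 5.61), the last being the fragment printed above. The highest score in Nanog-/- ESCs was 7.52, from 13 reads to a fragment 95.1 kb upstream. Jarid2 RPKM was lowest in EpiSCs, the state with the most contacts.

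Of the PRC1 chromodomain genes, Cbx2 (chr11:119022090-119024419) had 2 contacts in WT ESCs, 4 in Nanog-/- ESCs and 2 in EpiSCs. In EpiSCs it met the promoter fragment of Cbx8 (chr11:119032182-119042897), a neighbouring gene for another PRC1 chromodomain protein, 14.3 kb away (34 reads, score 5.25). Cbx8 had 0.233 RPKM in WT ESCs, 1.35 RPKM in EpiSCs and 0.427 RPKM in Nanog-/- ESCs. Both genes were thus highest in EpiSCs, as they also were in the deposited values. The farthest partner of Cbx2 in WT ESCs was a fragment overlapping a Rbfox3 exon 453.7 kb away (7 reads, score 5.52). In EpiSCs and Nanog-/- ESCs the farthest partners were adjoining fragments in an intron of Tbc1d16, 158.2 kb away (12 reads, score 6.78) and 159.3 kb away (8 reads, score 5.03). The highest score in Nanog-/- ESCs was 8.34, from 15 reads to the Rbfox3 promoter fragment 110.1 kb away.

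Cbx7 (chr15:79960071-79972253) had contacts in EpiSCs only among the 3 lists, where its RPKM was lowest. This bait held the GENCODE 5′ end of Cbx7 but not its RefSeq entry. The partner printed above, 95.6 kb away, had 12 reads (6.20 to 21.0 by the exact Poisson interval) and a score of 11.99, the second highest of all member contacts, and a fragment 83.7 kb away had 8 reads and a score of 6.43. Pcgf6 (chr19:47036649-47054916), whose bait of 18268 bases is the longest of the 9, met a fragment beyond the 3′ end of its gene 15.7 kb away in EpiSCs and Nanog-/- ESCs. The reads were 25 (16.2 to 36.9) and 22 (13.8 to 33.3), with overlapping intervals that cover counting error only, and the scores were 6.03 and 11.03. Nanog-/- ESCs also had the adjoining fragment 13.9 kb away (15 reads, score 5.30), and WT ESCs had no contact of Pcgf6.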

How the data were processed

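PCHi-C and RNA-seq were analysed, and the ChIP-seq samples of EpiSCs were not used. Per the labels and the study's methods, PCHi-C read pairs were mapped to GRCm38 (Bowtie 1.1.0) and filtered with HiCUP, CHiCAGO contacts were called, and 2 biological replicates were combined. The authors deposited read counts and a CHiCAGO score per contact. Lanes are not tied to replicates. Library depth is not given by the lists. RNA-seq RPKM, deposited by the authors as 1 median per group for 15646 genes, came from reads processed with Trim Galore, TopHat and DESeq2 (versions not given in the sources used here), and whether strand was used is not stated. The column named BT12 was taken as Nanog-/- ESCs from the series' design text. Deposited fold changes and p-values were not used.

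Members and lists were chosen with earlier results of these data known, and 1 gene of the list of other Polycomb genes is not reported here. Genes of at least 1 RPKM in either state were compared on log2(RPKM + 1), at 2-fold. Where a pair was listed from each of its ends, its higher reads and score were taken and the reads differed for 29, 13 and 1217 pairs of the WT ESC, EpiSC and Nanog-/- lists. Distances join fragment midpoints. Fragments were annotated with GENCODE exons, and super-enhancer fragments were taken by coordinates from a published table. For named contacts, the highest score and the longest distance per member and list, those in all 3 lists, those over 800 kb and those with Polycomb genes were taken. Python 3.11.15, numpy 2.4.6, scipy 1.17.1 and pandas 2.3.3 were used. The expression scaling and 2-fold comparison were tested on simulated data, and the contact comparison was not. The simulation changed 200 genes, whereas 1633 genes were 2-fold higher and 1512 were 2-fold lower in scaled EpiSC values. It therefore cannot show whether the EpiSC scaling is right for these data. Alternatives were the scaling, pseudocount, filter, score, reads and distance.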

Additional observations from a re-analysis of the deposited data

How the results depend on the processing

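No paired analysis was possible because the RNA-seq table holds 1 median per group and the contact lists are combined, and for the same reason leaving out single replicates was not run. Without scaling of the EpiSC values, 0 members were 2-fold lower and 2 were 2-fold higher, their median difference was −0.22, and the other Polycomb genes had 1 lower and 13 higher. The members' median was −0.93 with the scaling taken from genes of 10 RPKM or more and −1.14 with a pseudocount of 0.1 RPKM, and that of Nanog-/- ESCs was −0.19 after scaling by its median ratio. At a score of 7 or more, the members had 9 contacts in WT ESCs, 9 in Nanog-/- ESCs and 11 in EpiSCs, and the share of WT ESC contacts also listed was 11.1% (1 of 9) both in EpiSCs and in Nanog-/- ESCs. With 10 reads or more, EpiSCs had 19. Matching partners within 10 kb, chosen after seeing the data, gave 41.2% in EpiSCs and 44.1% in Nanog-/- ESCs. Of 55 summary values under the alternatives, 40 stayed within 1.5 times the main count, within the interval of the main share or at the same median or ratio, and no called difference changed sign. The 40 include the gene ratios, which no scaling can change. They also include the members' counts without the filter on low values, which all 9 members pass. Those values were fixed in advance and do not measure stability. Contacts of few reads cannot be told from absent ones near the score of 5.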

Other observations

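Some baits of the other Polycomb genes met super-enhancer fragments, which no subunit bait did, or partners over 800 kb away, as Jarid2 did. How often baits in general met super-enhancer fragments was not computed. Pcgf2, the PCGF subunit also known as MEL18, met a super-enhancer fragment with the Mllt6 promoter 35.4 kb away in all 3 lists, with 41 reads and a score of 10.58 in WT ESCs, 32 reads and 5.69 in EpiSCs, and 28 reads and 14.24 in Nanog-/- ESCs. Usp7, a deubiquitinase found with variant PRC1, met a super-enhancer fragment 24.3 kb away in WT ESCs (25 reads, score 6.89) and EpiSCs (43 reads, score 16.69), which carries a bait for U6.574. As these partners of Pcgf2 and Usp7 are baited, contacts with a promoter and with a super-enhancer cannot be told apart there. The study left super-enhancers that overlap baited fragments out of its main assignment of target genes. Phc1, a polyhomeotic subunit of canonical PRC1, met a super-enhancer fragment 360.7 kb away (6 reads, score 5.31) in WT ESCs. Bmi1 met the Nebl promoter fragment 948.8 kb away in WT ESCs, with 9 reads and a score of 15.34, and Max met the Pigh promoter fragment 2126 kb away in Nanog-/- ESCs, with 3 reads and a score of 5.87.

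Contact numbers of these baits varied between lists. Phf19, an accessory PRC2 gene, had 17, 7 and 25 contacts in WT ESCs, EpiSCs and Nanog-/- ESCs, Ring1 had 10, 19 and 14, and Phc3, a polyhomeotic gene, had 21, 16 and 6. Kdm6b, the demethylase gene, had 13 in WT ESCs, 13 in Nanog-/- ESCs and 3 in EpiSCs. These 4 baits were chosen after their values were seen, and no test was made.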
